A study of Mus musculus with 27 samples.

Results

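The Hox cluster genes were examined in mouse V6.5 embryonic stem cells (mESCs) with and without Zfp512b. Members were all genes whose symbol is Hox, a cluster letter from a to d and a number. The rule found 39 of the 25209 genes in the deposited tables, 11 in the Hoxa, 10 in the Hoxb, 9 in the Hoxc and 9 in the Hoxd cluster. It used symbols only and no measured value. RNA of 27 libraries was sequenced, from WT cells and the Zfp512b knockout (KO) clones KO4 and KO8, with 3 libraries per genotype in naive cells and 2 in each later stage. Naive cells (Day 0) were kept with LIF plus inhibitors against MEK and GSK3, and primed cells (Day 2) in serum medium with LIF. Cardiomyocyte (CM) cultures (Day 7.5) came from embryoid bodies grown with vitamin C, and neural progenitor cell (NPC) cultures (Day 10) from embryoid bodies treated with 5 µM retinoic acid (RA). Each KO line is a single clone, in which a transcriptional terminator and a selection marker were inserted behind exon 3 of Zfp512b. The WT cells carried no such insertion and did not pass through the editing and selection, so clone, editing and loss of ZNF512B cannot be told apart within a line. The labels give the libraries of a group as separate samples but do not say whether they came from separate cultures, so the p-values measure the spread between these libraries only.

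Hox genes encode homeodomain transcription factors that give cells their position along the head to tail axis. The genes of a cluster lie in the order of their numbers, and in embryos those at the anterior end (low numbers, read first) are switched on earlier and closer to the head than the central and posterior ones. RA switches on anterior and central genes in neural tissue through receptors that bind DNA next to the clusters, whereas Wnt and Fgf signals act through Cdx factors on central and posterior genes. Hox proteins bind DNA together with PBX, MEIS and PKNOX cofactors, and in cells that do not use the clusters these are covered by Polycomb repressive chromatin. The study compared the clones with WT cells at each stage to ask what loss of ZNF512B does in stem cells and during differentiation.

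In mm9 the Hoxa cluster lies on chr6:52105366-52210874 on the minus strand, and the other clusters lie on the plus strand, Hoxb on chr11:96055630-96229570, Hoxc on chr15:102751534-102867274 and Hoxd on chr2:74506367-74603200. The sequences before the RefSeq start sites of 5 members are shown, because these genes carry the results below: Hoxd9 and its neighbour Hoxd8 were lower in both clones in NPC cultures and Hoxa6 was higher, Hoxb8 was lower in KO4 and higher in KO8 in CM cultures, and Hoxd13 was higher in both clones in primed cells. They were taken from the RefSeq promoter table (GRCm38.p6), placed on mm9 by exact match and trimmed to bases outside annotated exons of the same strand, and run 5′ to 3′ on the strand of the gene. The window of Hoxa6 lies inside the longer gene annotated on mm9, between its exons. Capitals mark the searched letters on either strand, AGGTCA (a nuclear receptor half-site), TGATNNAT (a composite site of Hox and PBX proteins) and TATAAA (the box where the general transcription machinery binds).
Hoxd9 (chr2:74535570-74535736, + strand): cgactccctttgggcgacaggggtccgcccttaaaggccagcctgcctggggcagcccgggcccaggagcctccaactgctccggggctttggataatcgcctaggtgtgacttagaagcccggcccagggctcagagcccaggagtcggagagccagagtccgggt
Hoxd8 (chr2:74542422-74542671, + strand): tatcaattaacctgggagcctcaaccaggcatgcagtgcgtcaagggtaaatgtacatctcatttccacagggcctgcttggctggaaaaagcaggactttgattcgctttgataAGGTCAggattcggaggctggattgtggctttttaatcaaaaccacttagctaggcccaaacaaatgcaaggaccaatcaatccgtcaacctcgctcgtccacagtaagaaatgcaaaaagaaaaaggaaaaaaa
Hoxa6 (chr6:52158722-52158921, - strand): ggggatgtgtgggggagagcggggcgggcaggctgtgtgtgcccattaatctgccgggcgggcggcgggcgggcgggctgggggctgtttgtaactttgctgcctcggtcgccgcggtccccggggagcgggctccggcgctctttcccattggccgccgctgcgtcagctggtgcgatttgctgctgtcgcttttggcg
Hoxb8 (chr11:96142969-96143218, + strand): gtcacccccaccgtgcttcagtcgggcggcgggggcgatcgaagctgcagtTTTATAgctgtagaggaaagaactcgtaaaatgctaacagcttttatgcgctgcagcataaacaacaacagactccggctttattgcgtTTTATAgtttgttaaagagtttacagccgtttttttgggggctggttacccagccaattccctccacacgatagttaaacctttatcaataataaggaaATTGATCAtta
Hoxd13 (chr2:74506032-74506281, + strand): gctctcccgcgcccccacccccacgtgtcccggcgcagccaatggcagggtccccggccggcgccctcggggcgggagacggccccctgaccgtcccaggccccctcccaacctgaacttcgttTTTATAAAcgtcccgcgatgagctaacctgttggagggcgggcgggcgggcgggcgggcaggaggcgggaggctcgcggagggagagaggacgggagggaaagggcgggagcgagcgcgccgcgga
Hoxd8 held AGGTCA once, Hoxb8 held TATAAA at 2 places and TGATNNAT once, and in Hoxd13 overlapping letters match TATAAA on both strands, which was counted as 2. None of the searched letters stood in the windows of Hoxd9 and Hoxa6. The table held 24 promoters of 22 of the 39 members. In windows of 300 bases, AGGTCA was found in 7 of these 24 against 16.3% of all 32851 promoters, TGATNNAT in 4 against 8.85%, TATAAA in 4 against 13.6%, and a loose form of the direct repeat bound by RA receptors in 0 against 0.861%. The median number of CG dinucleotides was 14.5 in the Hox promoters and 7 in all promoters.

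The deposited tables give a mean over WT and one clone per gene, from which the whole reads of each library were solved. Values below are normalized reads, that is reads divided by the library's size factor, and the libraries of a group are given in order of decreasing size factor, an order that carries no meaning. Depth was about 34.2 to 39.7 M (mega) reads in naive, 15.1 to 18.2 M in primed, 16.1 to 18.6 M in NPC and 17.1 to 19.3 M in CM libraries. Reads per library were obtained for 34 members in naive cells, 39 in primed cells, 24 in NPC and 39 in CM cultures. The rest, among them the most highly expressed Hox genes of NPC cultures, are given as the authors' means. Normalized reads of Zfp512b, the targeted gene, were 929 and 977 in primed WT, 191 and 219 in KO4 and 184 and 154 in KO8 libraries, and 1118 and 1060, 184 and 209, and 155 and 173 in CM cultures, so the clones were low in both stages. Reads of the exons before the terminator may remain. In naive cells and NPC cultures Zfp512b had no reads per library, so its level in the clones was not checked there. Its authors' means, each over WT and 1 clone, were 697 with KO4 and 675 with KO8 in naive cells. In NPC cultures they were 1325.3 and 1354.5. The 2 KO8 libraries of NPC cultures differed from each other more than the other pairs of a group in chi-square per gene, 11.57 against at most 5.75. In them 14 of the 17 Hox genes tested were higher in the second, with a median log2 ratio of 0.55 against 0.047 over all genes, so NPC results are also given without each of them.

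The 4 clusters were most active in NPC cultures. To compare genes of different length, the authors' means over WT and KO4 libraries were divided by exon length and depth, giving RPKM, reads per kilobase of exon scaled to a common depth. The median over the 39 members was 7.95 RPKM in NPC cultures, 0.122 in CM cultures, 0.0244 in primed and 0.0227 in naive cells. In NPC cultures 26 of the 39 members reached 1 RPKM. All 12 anterior members (numbers 1 to 4) and all 11 central members (5 to 8) did so, with medians of 22.4 and 18.3 RPKM, but only 3 of the 16 posterior members (9 to 13), Hoxb9, Hoxd9 and Hoxb13, whose median was 0.136 RPKM. The highest levels were those of Hoxa5 (263 RPKM), Hoxa4 (134 RPKM) and Hoxc5 (91.3 RPKM). Stages were normalized separately and cells of several types were pooled, so levels between stages are a description, and fewer cells of a type and less RNA per cell cannot be told apart.

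In the other stages the order was different. In CM cultures no member reached 1 RPKM in this mean, and the highest were Hoxb3 (0.962 RPKM) and Hoxb2. In WT CM libraries alone Hoxb3 stood at 1.69 RPKM (1.38 to 2.01), Hoxb2 at 1.07 (0.989 to 1.14) and Hoxb4 at 0.823 (0.621 to 1.03), and the ranges of Hoxb2 and Hoxb4 overlapped. In naive cells 5 members reached 1 RPKM, 4 of them posterior: Hoxc12 (4.52 RPKM), Hoxc13 (4.28), Hoxb13 (1.14) and Hoxb9 (1.11) beside Hoxc4 (1.88). In primed cells no member did, and Hoxd13 was highest with 0.417 RPKM. At the lower end, Hoxd12 had 0 reads in all naive, primed and NPC libraries, and Hoxb2, Hoxb5 and Hoxb6 in all naive ones.

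**Figure D1:**
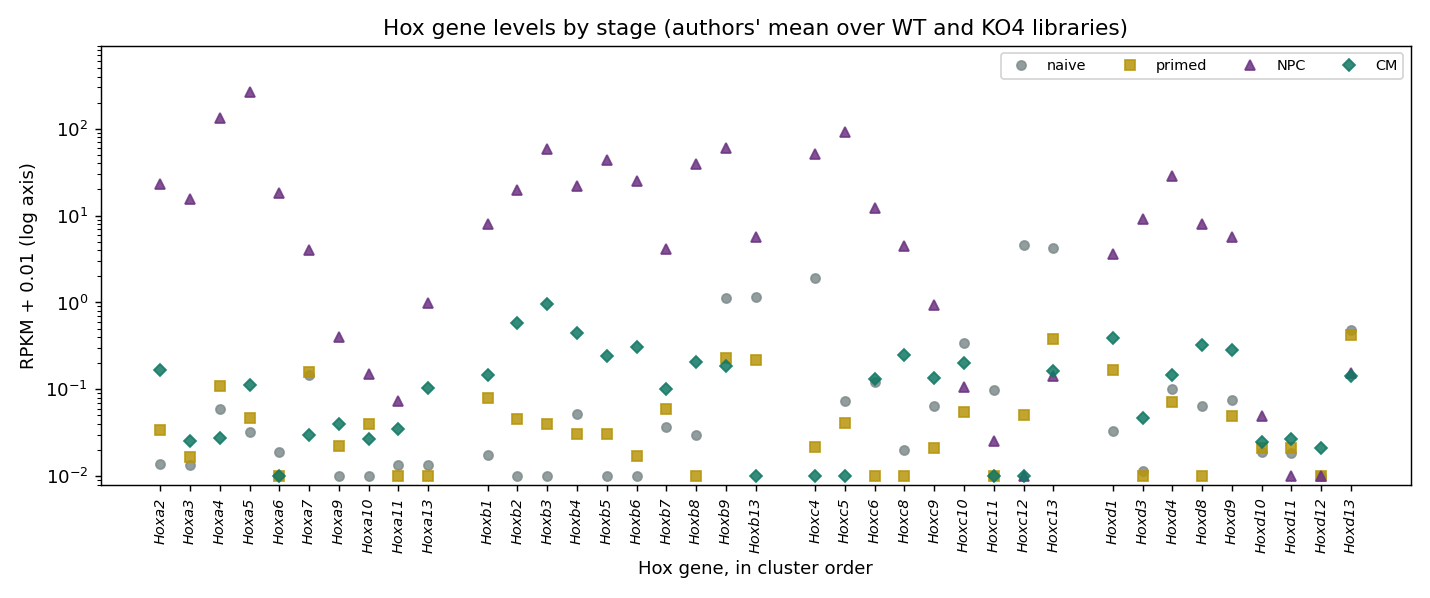
RPKM + 0.01 on a log axis for 38 Hox genes in cluster order, from the authors' mean over WT and KO4 libraries, with a symbol for each of the 4 stages. The NPC triangles lie far above the other stages in anterior and central genes, up to 263 RPKM for Hoxa5, and drop toward the posterior ends of the Hoxa, Hoxc and Hoxd clusters. Naive circles stand highest at Hoxc12 and Hoxc13.

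In NPC cultures 4 Hox genes changed in the same direction in both clones, 3 downward (Hoxd9, Hoxc8, Hoxd8) and 1 upward (Hoxa6). Of the 39 members, 15 highly expressed ones had no reads per library and 7 had a mean under 5 normalized reads, which left 17 for the test. The test was limma on log2(normalized reads + 1) with the 3 genotypes in a single fit, and a gene counted as called when its Benjamini-Hochberg adjusted p over all 10463 genes tested was under 0.05. Fold changes are on that log2 scale and understate the change of genes with few reads. In KO4, 4 members were called down (2.76% of all genes tested) and 1 up (4.35%). In KO8, 3 were called down (3.79%) and 1 up (6.83%). Called down in both clones were 3 of 17 members (1.38% of all genes) and up in both 1 (3.3%). Both comparisons rest on 1 pair of WT libraries, so a shift in these would move both.

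Hoxd9 and Hoxd8, a posterior and a central gene that lie next to each other in the Hoxd cluster, were both lower in the clones. Hoxd9 had 359 and 379 normalized reads in WT, 50.2 and 55.3 in KO4 and 63.0 and 53.8 in KO8. Every clone library lay far below both WT libraries. Its log2 fold change was -2.78 ± 0.22 (SE; limma adjusted p = 0.000527) in KO4 and -2.64 ± 0.22 (adjusted p = 0.000426) in KO8, and it was the only NPC member whose call in both clones held without any 1 library. Hoxd8 had 447.8 and 447.5 in WT, 284 and 297 in KO4 and 235 and 294 in KO8, again without overlap of WT and clones. It fell by 0.62 (limma adjusted p = 0.0357) in KO4 and by 0.77 (adjusted p = 0.011) in KO8 on the log2 scale. Hoxd1, the anterior end of the cluster, had 158 and 111, 100 and 77.2, and 96.3 and 98.9, lower in each clone library than in WT but not called (limma adjusted p = 0.236 and 0.342). Hoxd13 at the posterior end had few reads (7.57 and 10.4, 3.86 and 2.09, 10.8 and 5.76) and was not called (limma adjusted p = 0.293 and 0.923).

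In the Hoxc cluster Hoxc8, a central gene of the thoracic region, had 242 and 261 in WT, 102 and 78.2 in KO4 and 59.4 and 103 in KO8. Both clones were below WT in all libraries. The log2 fold changes were -1.48 ± 0.28 (limma adjusted p = 0.0134) and -1.67 ± 0.28 (adjusted p = 0.00588). Its posterior neighbour Hoxc9 had 55.9 and 54.3 in WT, 27.0 and 12.5 in KO4 and 14.4 and 23.1 in KO8. The groups did not overlap and the log2 differences of -1.53 and -1.54 were of the same size as for Hoxc8, but they did not pass the test (limma adjusted p = 0.079 and 0.058). Hoxc6, on the anterior side, had 559 and 539, 489 and 482, and 392 and 715, so the KO8 libraries lay on both sides of WT, and neither difference was called (limma adjusted p = 0.742 and 0.919). Hoxc13 had 9.47 and 6.26, 1.93 and 4.17, and 3.6 and 5.76 (limma adjusted p = 0.421 and 0.635).

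Hoxa6, a central gene of the Hoxa cluster, was the member that rose in both clones, with 385 and 431 in WT, 789 and 876 in KO4 and 797 and 1408 in KO8. All clone libraries exceeded both WT libraries, and the KO8 libraries differed from each other by 1.77-fold. The log2 fold changes were 1.03 ± 0.21 (limma adjusted p = 0.0189) in KO4 and 1.38 ± 0.21 (adjusted p = 0.00407) in KO8. Its neighbour Hoxa7 had 176 and 181 in WT, 203 and 225 in KO4 and 229 and 384 in KO8, and Hoxa9 had 12.3 and 30.3, 24.1 and 25.0, and 34.2 and 53.8. The clone values of Hoxa7 lay above WT, and those of Hoxa9 did so in KO8, but the log2 differences of 0.26 and 0.73 and of 0.33 and 1.11 were not called (limma adjusted p = 0.61 and 0.0765, 0.783 and 0.183). Hoxa2, an anterior gene of the hindbrain and the highest member with reads per library, had 870 and 985, 936 and 958, and 908 and 933. Its clone libraries lay between the WT libraries, with log2 differences of 0.032 ± 0.087 and -0.008 ± 0.087 (SE). Hoxa10 (7.72 to 14.4) and Hoxa13 (21.1 to 54.2 over the 6 libraries) were not called. The KO8 libraries of Hoxa10 (12.6 and 14.4) lay above WT (8.52 and 9.39). All 6 Hoxa genes tested had a positive log2 difference in KO4, while all 4 Hoxc and all 4 Hoxd genes had a negative one in both clones.

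In the Hoxb cluster Hoxb13, a posterior gene that lies apart from the rest of its cluster, had 287 and 234 in WT, 167 and 143 in KO4 and 169 and 176 in KO8. It was below WT in every clone library and fell by 0.74 on the log2 scale in KO4 (limma adjusted p = 0.0402), while the difference of -0.58 in KO8 was not called (adjusted p = 0.0767). Hoxb1, the first gene to respond to RA in the hindbrain, had 376 and 344, 269 and 255, and 249 and 366 (limma adjusted p = 0.202 and 0.464). Hoxb7 had 246 and 256, 324 and 316, and 304 and 649 (limma adjusted p = 0.56 and 0.0949). Its exons share bases with those of Hoxb8, so reads of the pair may not be separable. Over all 17 members tested, the KO4 libraries were both below WT in 10 (27.7% of all genes) and the KO8 libraries in 7 (25.5%). The median log2 difference was -0.457 in KO4 and -0.152 in KO8, against -0.015 and 0.001 over all genes tested.

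**Figure D2:**
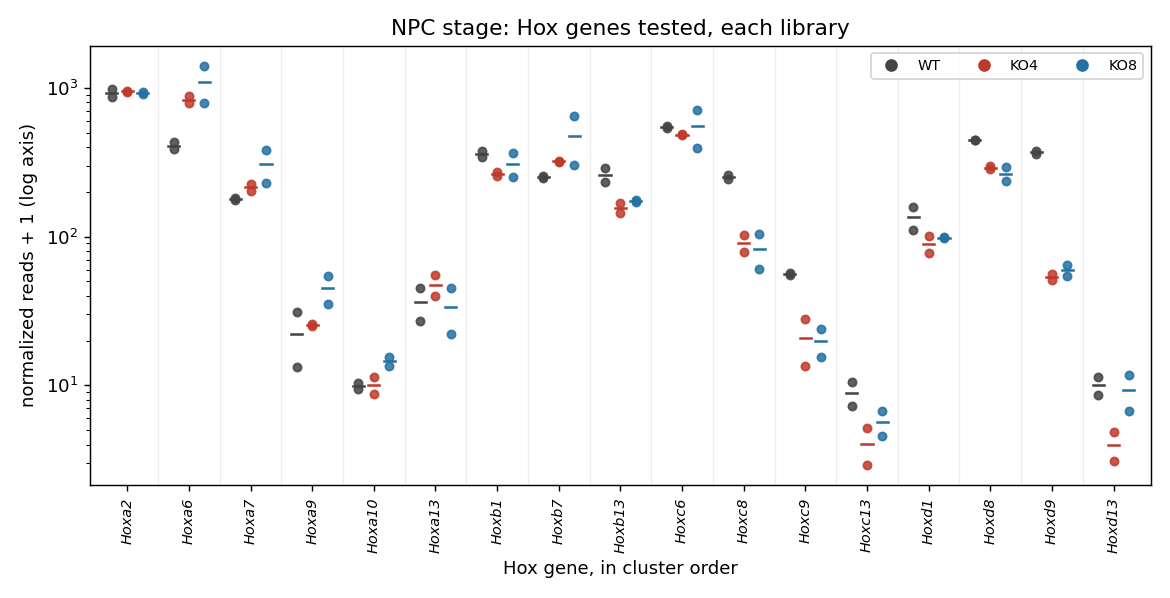
Normalized reads + 1 on a log axis for the 17 Hox genes tested in NPC cultures, with a point for each of the 2 libraries per genotype and a bar at their mean. Hoxd9, Hoxc8, Hoxc9 and Hoxd8 show both clones below WT, and Hoxa6 both above it. The KO8 points of Hoxa6, Hoxa7, Hoxb7 and Hoxc6 lie far apart.

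No Hox gene was called between KO4 and KO8 in NPC cultures by limma (1.33% of all genes were), 0 had an unadjusted p under 0.05, and voom weights also called 0, but without the first KO8 library 4 were called. For the 15 members without reads per library, the difference of the authors' means gives only the difference between the clones, with no test. It was higher in KO8 for 10 and in KO4 for 5. These differences are lower bounds and do not rank the genes. Among central and posterior Hoxb genes KO8 was at least 1.39-fold above KO4 for Hoxb8, 1.36-fold for Hoxb9 and 1.31-fold for Hoxb6. Hoxc5 was at least 1.21-fold higher in KO4, and the bounds of the other members were 1.21-fold or less. Hoxa5 and Hoxa4, the most highly expressed Hox genes, had bounds of 1.04-fold and 1.01-fold, both toward KO4. The number of members called moved with single libraries. Without either WT or either KO4 library it was 1 in KO4, and without either KO8 library 7. In KO8 it was 1 without either WT library and 7 without either KO8 library. The count shared by the clones was 1 without a WT or KO4 library, 4 without the first and 6 without the second KO8 library. The call of Hoxa6 in KO4 was also lost with voom weights (adjusted p = 0.0913).

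Markers of neural cells changed as well, and those called in both clones rose. Of the 6 neural progenitor markers tested, 4 were called up in both clones (3.3% of all genes tested), and of 6 neuron markers also 4. Over the 6 of 10 progenitor markers with reads per library, sums were 461 to 647 in WT, 1326 to 1653 in KO4 and 1098 to 2651 in KO8. Over 4 of 7 smooth muscle and fibroblast markers they were 1214 to 1555, 404 to 426 and 822 to 1129. These sums leave out most reads of both lists. The authors' means of the whole progenitor list summed to 8556.5 with KO4 and 10520 with KO8. For smooth muscle and fibroblast markers they summed to 13888 and 13595, so a fall of the whole list was not shown. The part of these markers in the Hox differences was not tested. Among 10 homeobox genes of the forebrain, midbrain and other axis regions that were tested, Pax6, En2 and Pax2 rose and Emx2 fell in both clones. Pax6, a factor of neural progenitors that is also on that marker list, had 169 and 179 in WT, 371 and 457 in KO4 and 286 and 513 in KO8. Its log2 fold changes of 1.23 and 1.13 were called (limma adjusted p = 0.0156 and 0.0169), and the clones did not overlap with WT.

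In CM cultures the clones departed from WT in opposite directions. All 39 members had reads per library, and 27 passed the filter of a mean of 5 normalized reads. In KO4, 17 were called down (28.4% of all 10043 genes tested) and 0 up. In KO8, 12 were called up (9.97%) and 0 down. Called down in KO4 and up in KO8 were 8 members (2.84%): Hoxb2, Hoxb5, Hoxb6, Hoxb8, Hoxc6, Hoxc8, Hoxc9 and Hoxc10. These 8 are described because of their opposite directions, which was decided after their values were seen. No member was called in the same direction in both clones. Both KO4 libraries lay below both WT libraries in 22 of 27 members (40.6%), both KO8 libraries above them in 22 (29.8%), and both at once in 19 (10.0%). The median log2 difference of the members was -2.80 in KO4 and 1.68 in KO8, against -0.048 and -0.012 over all genes tested. With genes that had a group at 0 reads set at their bound against a floor of 6 reads over that group, and 4 with both groups at or under this floor left out in KO4, it was -2.01 and 1.68. Hoxa10, Hoxa11, Hoxc4 and Hoxd10 passed the filter only through KO8 and so had to differ there.

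The Hoxb genes had the highest levels in WT. Hoxb2, an anterior gene of the hindbrain, had 58.7 and 68.0 normalized reads in WT, 4.11 and 4.21 in KO4 and 196 and 204 in KO8. The 3 genotypes did not overlap, and the replicates lay close together. Its log2 fold changes were -3.64 ± 0.31 (SE; limma adjusted p = 3.94e-06) in KO4 and 1.65 ± 0.31 (adjusted p = 0.00388) in KO8. Hoxb5 had 25.2 and 17.7, 3.08 and 1.05, and 112 and 105, with log2 fold changes of -2.94 and 2.30 (limma adjusted p = 0.000425 and 0.00658). Hoxb6 had 23.3 and 12.8, 4.11 and 4.21, and 173 and 120, with -1.83 and 2.98 (limma adjusted p = 0.00462 and 0.000897). Both are central genes, with KO8 libraries several times above the higher WT library. Hoxb8 had 25.2 and 11.8 in WT, 0 and 0 in KO4 and 118 and 80.9 in KO8. With 0 reads in KO4, only bounds can be given, at a floor of 6 reads over the group: WT was at least 5.94-fold and KO8 at least 32.0-fold above KO4. In KO8 its log2 fold change against WT was 2.43 ± 0.54 (limma adjusted p = 0.00974).

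Hoxb3 and Hoxb4 fell in KO4 and were not called in KO8. Hoxb3 had 74.6 and 108 in WT, 7.18 and 17.9 in KO4 and 195 and 187 in KO8, with log2 differences of -2.87 (limma adjusted p = 0.000114) and 1.08 (adjusted p = 0.0713). Hoxb4 had 76.5 and 46.3, 2.05 and 4.21, and 125 and 105, with -3.93 (limma adjusted p = 2.04e-05) and 0.93 (adjusted p = 0.143). In both genes the KO8 libraries still lay above WT. Hoxb7 had 13.1 and 13.8 in WT, 0 and 0 in KO4, where it was at least 4.31-fold lower, and 31.9 and 24.6 in KO8. Hoxb1 (2.05 to 24.6 over the 6 libraries) and Hoxb9 (3.16 to 20.7) differed from WT in neither clone by the test. Exons of Hoxb2 and Hoxb3 share bases with the antisense transcript Hoxb3os, and those of Hoxb8 with Hoxb7. Whether strand was used in counting is not given in the sources used here, so reads of these partners may not be separable.

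Apart from Hoxc4, the called Hoxc genes were central and posterior. Hoxc8 had 29.8 and 5.91 in WT, 0 and 3.16 in KO4 and 160 and 159 in KO8, and its WT libraries differed from each other by more than its KO8 libraries. Its log2 fold changes were -2.84 ± 0.78 (SE; limma adjusted p = 0.0105) and 3.46 ± 0.78 (adjusted p = 0.0101), and the KO4 call was lost under quantile normalization and without the first WT or first KO4 library, and the KO8 call with no filter and without the second WT or either KO8 library. Hoxc10, which acts in the lumbar region, had 13.1 and 11.8, 0 and 1.05, and 78.9 and 101, with -3.23 and 2.75 (limma adjusted p = 0.000531 and 0.00498). Every KO8 library of both genes lay well above WT. Hoxc6 had 11.2 and 10.8 in WT, 0 and 0 in KO4 and 47.0 and 41.0 in KO8, and Hoxc9 14.0 and 7.88, 0 and 0, and 45.1 and 50.2. Against the floor, WT was at least 3.53-fold and 3.51-fold above KO4, and KO8 at least 14.1-fold and 15.3-fold. Against WT, KO8 was higher by 1.90 and 2.07 on the log2 scale (limma adjusted p = 0.0329 and 0.0266). Hoxc4 and Hoxc5 had 0 reads in all WT and KO4 libraries and 17.8 and 21.5, and 7.51 and 17.4, in KO8. Hoxc4 was thus at least 6.84-fold above WT, and Hoxc5 did not pass the filter. Hoxc13 went down in KO4, with 13.1 and 9.85 in WT, 2.05 and 2.10 in KO4 and 7.51 and 6.15 in KO8 (limma adjusted p = 0.0161 in KO4 and 0.479 in KO8), and its KO8 libraries lay below WT.

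In the Hoxd cluster Hoxd3, Hoxd4, Hoxd8 and Hoxd9 fell in KO4, and 1 gene, Hoxd10, rose in KO8. Hoxd8 had 19.6 and 36.5 in WT, 4.11 and 2.10 in KO4 and 45.1 and 52.2 in KO8. Hoxd9 had 24.2 and 12.8, 6.16 and 0, and 62.9 and 65.5. Both genes thus lay between the clones in WT, with log2 differences in KO4 of -2.80 and -2.80 (limma adjusted p = 0.000715 and 0.012) and in KO8 of 0.84 and 1.80 (adjusted p = 0.262 and 0.133). Hoxd4 had 13.1 and 11.8 in WT, 0 and 0 in KO4 and 19.7 and 20.5 in KO8. Hoxd3, whose exons share bases with Hoxd4, had 11.2 and 3.94, 0 and 0, and 9.39 and 19.5. WT was at least 3.99-fold above KO4 for Hoxd4 and at least 2.43-fold for Hoxd3. Hoxd10 had 1.87 and 0.985, 0 and 0, and 9.39 and 18.4 (limma adjusted p = 0.0376 in KO8), Hoxd1 had 12.1 and 22.7, 4.11 and 12.6, and 66.7 and 46.1 (adjusted p = 0.124 and 0.0524), and Hoxd13 overlapped between all genotypes (0 to 10.3).

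The Hoxa cluster had 5 genes tested. Hoxa10 had 3.73 and 0.985, 0 and 0, and 38.5 and 24.6, which put KO8 at least 10.1-fold above KO4 and 3.38 above WT on the log2 scale (limma adjusted p = 0.00823). Hoxa13 had 9.32 and 4.93, 0 and 2.10, and 31.9 and 18.4, and was called in KO4 only (limma adjusted p = 0.0278 and 0.124). Hoxa11 had 0.932 and 3.94, 0 and 0, and 8.45 and 17.4 and was called in neither clone. Hoxa2 went against the pattern, with 5.6 and 13.8 in WT, 6.16 and 2.10 in KO4 and 3.76 and 0 in KO8, so KO8 was its lowest genotype (limma adjusted p = 0.345 and 0.114).

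**Figure D3:**
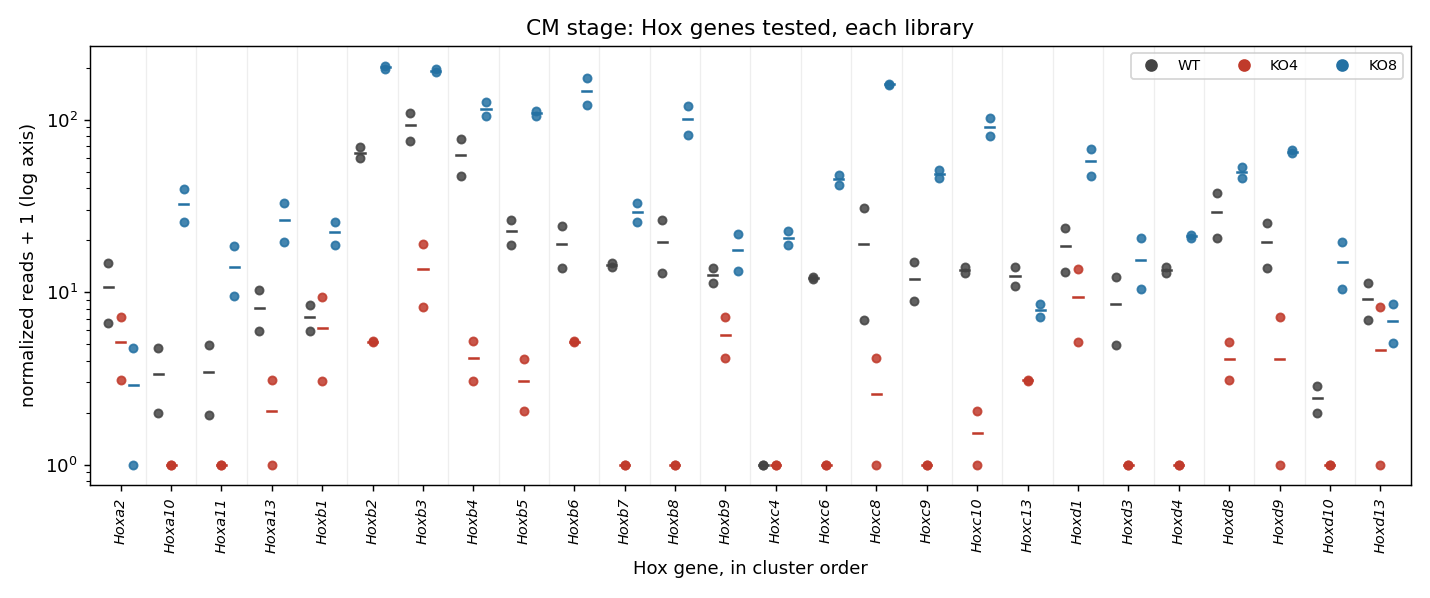
Normalized reads + 1 on a log axis for 26 of the Hox genes tested in CM cultures, with a point for each of the 2 libraries per genotype and a bar at their mean. In 18 genes both KO4 points lie below and both KO8 points above the WT points. KO4 points at the lower edge are libraries with 0 reads.

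Compared with each other, KO4 was called lower than KO8 in 24 of the 27 members (28.0% of all genes tested) and higher in 0. The exceptions were Hoxa2, Hoxc13 and Hoxd13. Among the 24, Hoxa10, Hoxa11, Hoxc4 and Hoxd10 passed the filter only through KO8 and so had to be lower in KO4. These genes are also part of the medians that follow. The median log2 difference was -3.34 with the 10 genes that had 0 reads in KO4 set at their bound, and -4.36 as fitted, against -0.034 over all genes. The count in KO8 rested on single libraries. Without the second WT library 5 members were called up in KO8, without the first KO8 library 2 and without the second 3. The count of opposite calls was then 4, 1 and 1. In KO4 the count stayed between 14 and 18 and between the clones between 22 and 24. With no filter on low values, 9 members were called up in KO8 and 5 in opposite directions.

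Markers of other cell types moved with the clones in CM cultures. The cardiac markers Myl2 (909 to 1129 in WT, 0 to 2.05 in KO4, 165 to 205 in KO8) and Tbx5 (205 to 215, 0 to 12.6, 321 to 370), the 2 of 10 with reads per library, were called down in KO4, and Myl2 also in KO8. All 4 neural progenitor markers tested were called up in KO4, where the sum of the 5 with reads was 476 to 581 against 121 to 154 in WT and 88.3 to 105 in KO8. The authors' means of Sox1, a neural determinant, were 1757 with KO4 and 84.9 with KO8. All 4 endoderm markers tested were called down in KO4, with sums of 2155 to 2740 in WT, 367 to 541 in KO4 and 2337 to 2342 in KO8. Gata1, a blood factor, had 74.9 to 147, 6.16 to 6.31 and 643 to 671. Of 6 naive pluripotency markers 4 were called up and 1 down in KO4, and 5 down in KO8. The paraxial and early mesoderm, smooth muscle and fibroblast, neural crest and neuron lists had 1, 0, 4 and 2 genes called up and 2, 3, 1 and 1 called down in KO4, and 2, 1, 2 and 0 up and 1, 1, 1 and 2 down in KO8. Over all genes tested, 22.2% were called up in KO4 and 11.1% down in KO8, beside the 28.4% down in KO4 and 9.97% up in KO8. The part of these shifts in the Hox differences was not tested.

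Regulators of the clusters were taken from lists. Beside their counts in CM cultures, 28.4% of all genes tested were called down and 22.2% up in KO4. In KO8 these shares were 11.1% down and 9.97% up. Among 7 tested of 13 upstream regulators in CM cultures, Cdx2, which acts on central and posterior Hox genes, had 95.1 and 45.3 in WT, 27.7 and 18.9 in KO4 and 309 and 293 in KO8. It was called in opposite directions like the Hox genes, with log2 fold changes of -1.48 and 2.18 (limma adjusted p = 0.00415 and 0.00142). In all, 1 regulator was called up and 4 down in KO4, and 1 up and 1 down in KO8. Of 12 genes of RA response and metabolism, 6 were called down and 1 up in KO4 and 5 down in KO8, 4 of them in both clones, among which were Aldh1a3, Cyp26b1 and Crabp1 (5.76% of all genes were called down in both). Cyp26b1, which degrades RA, had 276 and 251, 14.4 and 21.0, and 97.7 and 107, lower in KO4 than in KO8 and in both than in WT. Of the 6 cofactor genes tested, 3 were called up and 2 down in KO4, and Pbx3 was called up in both clones, by 0.30 and 0.53 on the log2 scale (4.3% of all genes were called up in both). Of 6 chromatin regulators, 2 were called up and 2 down in KO4 and 1 down in KO8. Of 10 noncoding transcripts and neighbours of the clusters, 1 was called up and 1 down in KO4, and 2 up and 1 down in KO8. Haglr in the Hoxd cluster had 2.80 and 7.88, 0 and 0, and 17.8 and 10.2 and was called down in KO4 (limma adjusted p = 0.0147), and Evx1 beside the Hoxa cluster had 88.6 and 51.2, 57.5 and 101, and 278 and 279 and was called up in KO8 (adjusted p = 0.00117). Halr1, a noncoding transcript beside the Hoxa cluster, had 0.932 and 4.93, 20.5 and 17.9, and 1.88 and 2.05 and rose in KO4 (limma adjusted p = 0.0108), against the direction of the Hox genes. Hoxb5os had reads in KO8 alone (20.7 and 15.4), and Snx11 fell by 0.48 on the log2 scale in KO8 (limma adjusted p = 0.0241).

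In NPC cultures, where 7.11% of all genes tested were called in KO4 and 10.6% in KO8, the same lists gave the following counts. Of 9 upstream regulators tested, 0 were called in KO4 and 1, Gdf11, up in KO8. Of 10 RA genes, Rdh10 and Stra8 were called down in KO4 and Crabp1 up in KO8. Of the 3 cofactors tested, Meis3 fell in KO4, with 1016 and 979 in WT, 700 and 746 in KO4 and 833 and 926 in KO8. Of 13 noncoding transcripts and neighbours, 0 were called in KO4, and 4 up and 1 down in KO8. Among them Hoxb5os, antisense in the Hoxb cluster, had 246 and 309, 528 and 659, and 489 and 1201. It was higher in every clone library and called in KO8 alone (limma adjusted p = 0.0825 and 0.0198). Of 5 chromatin regulators, 0 were called in either clone.

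The KO effect was compared directly between the NPC and CM stages, as the clone minus WT difference in NPC minus that in CM, for 18 members. In KO4, 7 members were called (31.2% of all 9857 genes tested), all with a positive value: relative to WT, KO4 stood lower in CM cultures than in NPC cultures. In KO8, 7 were called (14.0%), all with a negative value: relative to WT, KO8 stood higher in CM cultures than in NPC cultures. Called in both clones with the same sign were 0 (4.68%). In KO4 Hoxd8, with reads in all groups, had 2.18 ± 0.45 (SE; limma adjusted p = 0.00189). In KO8 Hoxc8 had -5.13 ± 0.91 (limma adjusted p = 0.00171) and Hoxd9 -4.45 ± 0.89 (adjusted p = 0.00397). Hoxd9 was thus lower than WT in both clones in NPC cultures, while in CM cultures its KO8 libraries were above WT and its KO4 libraries below. Single libraries moved these counts. In KO4 the count was 4 without the first NPC WT library and 3 without the first CM WT, NPC KO4 or CM KO4 library. In KO8 it was 4 without the second NPC WT, the first NPC KO8 or the second CM KO8 library.

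**Figure D4:**
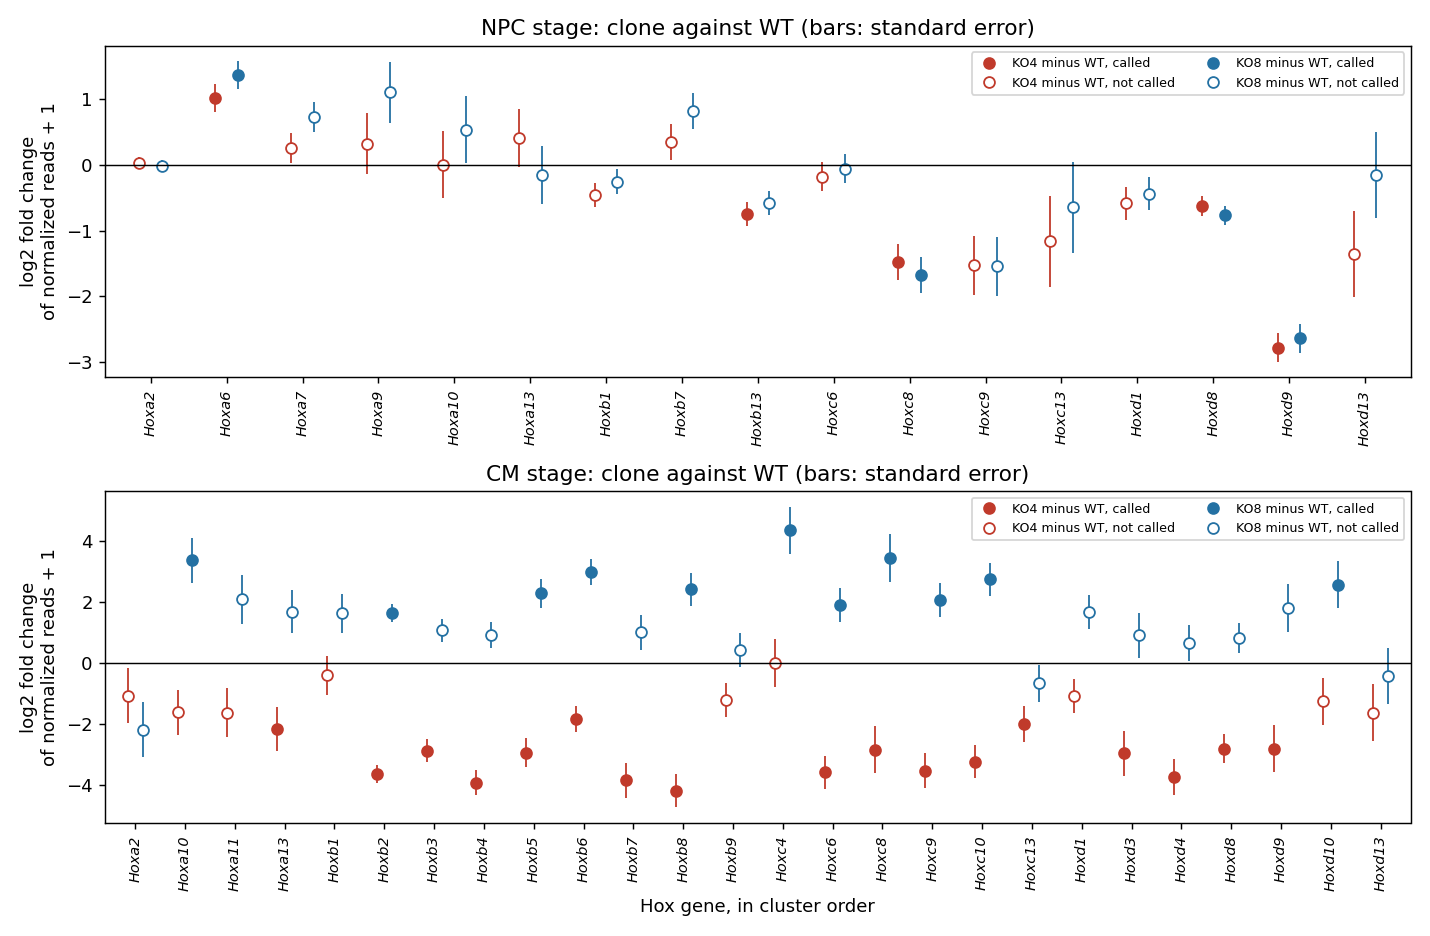
Log2 fold change of normalized reads + 1 against WT with its standard error for Hox genes tested, KO4 in red and KO8 in blue, in NPC cultures (top, 17 genes) and CM cultures (bottom, 26 genes). Filled points were called at an adjusted p under 0.05. In NPC cultures the clones lie together, with Hoxd9 lowest, whereas in CM cultures the KO8 points lie mostly above 0 and the KO4 points below.

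In naive cells 13 of the 34 members with reads per library passed the filter. In KO4, 1 member was called up (9.9% of all 3485 genes tested) and 0 down, and in KO8, 3 up (11.5%) and 0 down. Hoxc6 was called up in both clones (6.4%). It had 3.64, 4.00 and 4.18 normalized reads in WT, 7.81, 24.4 and 16.7 in KO4 and 23.8, 16.9 and 12.6 in KO8. All clone libraries lay above all WT libraries, and since WT was below the filter, the gene passed through the clones and had to differ. The log2 fold changes were 1.68 ± 0.46 (SE; limma adjusted p = 0.00829) and 1.88 ± 0.46 (adjusted p = 0.00353), and the KO4 call was lost with voom weights and without the second KO4 library. In KO8 Hoxc5 (3.64, 4.00 and 7.32 in WT, 11.7, 8.13 and 5.21 in KO4, 17.8, 12.9 and 15.8 in KO8) and Hoxd13 were called too, by 1.50 and 0.83 (limma adjusted p = 0.0295 and 0.0117). Hoxc5, with a WT mean of 4.99, also passed the filter through the clones and had to differ. Hoxd13 had 32.8, 38.0 and 29.3 in WT, 51.8, 51.8 and 51.1 in KO4 and 61.4, 68.4 and 50.4 in KO8. It was higher in every clone library, though not called in KO4 (limma adjusted p = 0.0575). All KO8 libraries lay above all WT libraries in 8 of 13 members (19.7%), among them Hoxb4, Hoxd4 and Hoxd9, which were not called. Hoxb7 and Hoxc9, with WT means of 1.61 and 3.58, were also among the 8. Like Hoxc6 and Hoxc5, they passed the filter through the clones and had to differ, so the filter partly fixed this count. In KO8 the count was 2 without the first or the third KO8 library, 1 without the second, and 5 without the third WT library or the second or the third KO4 library.

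Among naive genes with reads per library, Hoxd13 (0.372 RPKM) and Hoxc10 (0.324) were leading in WT, and their ranges overlapped. Hoxc10 had 22.7, 17.0 and 27.2 in WT, 19.5, 24.4 and 27.1 in KO4 and 29.7, 41.7 and 21.0 in KO8. It was not called, and the genotypes overlapped. Between KO4 and KO8, limma called 0 members (3.24% of all genes), 3 had an unadjusted p under 0.05, and voom weights called 0. Without the third KO4 library 1 was called. Of the 5 members without reads per library, 4 had a higher authors' mean with KO8, and the highest bound was 1.32-fold for Hoxb13. Of the 5 upstream regulators tested, 2 were called up in KO4 (9.9% of all genes tested) and 0 down (8.15%). In KO8, 1 was called up (11.5%) and 1 down (4.42%). Wnt3a was called up in both clones, with 6.37, 11.0 and 11.5 in WT, 31.3, 28.5 and 39.6 in KO4 and 39.6, 45.6 and 49.4 in KO8. Cdx2 was called up in KO4 alone, with 3.64, 8.00 and 18.8, 18.6, 28.5 and 29.2, and 7.92, 9.92 and 12.6 (limma adjusted p = 0.0166 and 0.786). The gene T was called down in KO8 alone (limma adjusted p = 0.997 and 0.0276). It had 28.2, 21.0 and 19.9 in WT, 27.3, 14.2 and 30.2 in KO4 and 7.92, 4.96 and 17.9 in KO8.

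In primed cells 6 of the 39 members passed the filter. In KO4, 2 were called (17.2% of all 10177 genes tested), 1 up and 1 down, and in KO8, 1 (12.9%), up. Hoxd13, at the posterior end of its cluster, was called up in both clones (4.45%). It had 10.5 and 7.98 in WT, 31.6 and 21.5 in KO4 and 24.2 and 34.3 in KO8, and no clone library overlapped with WT. The log2 fold changes were 1.42 ± 0.44 (SE; limma adjusted p = 0.0194) and 1.55 ± 0.44 (adjusted p = 0.0123), and both calls were lost with no filter on low values. Without the second WT library no member was called in either clone, without the first KO4 library none in KO4 and without the second KO8 library none in KO8. Hoxc13, the highest member in WT (0.577 RPKM), had 18.1 and 30.9 in WT, 4.07 and 9.23 in KO4 and 22.2 and 16.0 in KO8. It fell by 1.78 on the log2 scale in KO4 (limma adjusted p = 0.0125), and the KO8 libraries overlapped with WT (adjusted p = 0.773). Hoxb9 had 5.7 and 3.99, 15.3 and 14.4, and 12.1 and 16.0, higher in every clone library but not called (limma adjusted p = 0.082 and 0.123). With a WT mean of 4.85, Hoxb9 passed the filter through the clones and had to differ. Hoxd1 and Hoxb13, next in WT level, had 12.4 and 6.99, 0 and 1.03, and 6.05 and 3.43, and 9.51 and 7.98, 8.14 and 6.16, and 12.1 and 3.43. Hoxd1 did not pass the filter, and Hoxb13 overlapped between genotypes. Between KO4 and KO8, limma called 0 members (2.58%), 1 had an unadjusted p under 0.05, and voom weights called 0. Meis1, a Hox cofactor, was called up in both clones, with 16.2 and 24.0 in WT, 63.1 and 34.9 in KO4 and 53.4 and 52.5 in KO8.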

How the data were processed

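RNA-seq of 27 mouse libraries was used. Per the submitters' processing notes and methods, reads were trimmed with Trim Galore 0.6.7, aligned to mm9 with HISAT2 2.2, counted per gene with featureCounts and compared with DESeq2 1.46.0. The strand setting is not given in the sources used here. The authors deposited 8 tables, each of WT and 1 clone at 1 stage, with a signal column (base mean), the mean over libraries of gene counts divided by size factors. The other columns hold the authors' log2 fold changes, standard errors, Wald statistics, p-values and adjusted p-values, and were not used.

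Base means have 10 significant digits, so the whole reads of each library were solved from both tables of a stage together, by lattice reduction, and accepted at a weight of at least 0.99 under an assumed dispersion of 0.1, up to a base mean of 80 in naive cells and 1000 in the other stages. The share of genes (90%) and the tolerance (1.15) behind these limits were set after seeing which members they admitted, among them Hoxa6 and Hoxa2 in NPC cultures. Solved libraries carry no replicate number. The KO8 table was put on the scale of the KO4 table through the WT libraries. Genes with a mean of at least 5 normalized reads were tested with limma 3.58.1 (R 4.3.3, trended variance) on log2(normalized reads + 1), with all 3 genotypes of a stage in 1 fit and Benjamini-Hochberg adjustment over all genes tested. The scripts were tested on simulated data with Python 3.11.15, numpy 2.4.6 and pandas 2.3.3.

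A group with 0 reads was given a floor of 3 read pairs, or 6 reads, over the group. Floors cover counting error only. Genes with values printed in full were members that both clones shared as called up or as called down, the 3 members highest in WT at each stage, and up to 4 called genes of each other list by their adjusted p. Other members were named to account for the clusters, and exceptions are stated in the text. Some members and list genes enter the counts but are not reported here by name. The members and lists were chosen with earlier results of these data known. Alternatives were other pseudocounts, filters, scalings, voom weights, fits of only 2 groups, a minimum fold change, a stricter limit on base means and leaving out each library.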

Additional observations from a re-analysis of the deposited data

Results flagged for a closer look

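For 14 Hox genes and clones the effect of the knockout differed between NPC and CM cultures, by a limma interaction test with Benjamini-Hochberg adjustment. Each value is the clone minus WT difference in NPC cultures minus that in CM cultures, on the log2 scale. In KO4 7 of the 18 members tested were called, beside 31.2% of all 9857 genes tested, and all 7 were positive. Hoxb7 had 4.201 (limma adjusted p = 1.57e-05) and Hoxc6 3.409 (adjusted p = 2.37e-05), both central genes. Hoxd8 had 2.18 (limma adjusted p = 0.00189). The posterior genes Hoxc10, Hoxa13, Hoxa9 and Hoxc9 had 3.752, 2.565, 2.473 and 2.003 (limma adjusted p = 0.0219, 0.0342, 0.0338 and 0.0451). Hoxb7, Hoxc6, Hoxa9 and Hoxc9 had 0 reads in both KO4 libraries of CM cultures, so their values depend on the pseudocount and are no bounds. Hoxc10 had 0 and 1.05 and Hoxa13 0 and 2.10 normalized reads in these libraries, so their values depend on the pseudocount too. Hoxc10 also had only 0 to 6.26 in NPC libraries, too few for the NPC test. It entered the comparison of stages through KO8 in CM cultures. Hoxa9 had 5.6 and 1.97 in WT, 0 and 0 in KO4 and 9.39 and 11.3 in KO8 in CM cultures, too few for the CM test. It entered through its NPC reads.

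In KO8 7 of the 18 members tested were called, beside 14.0% of all genes tested, and all 7 were negative. Hoxc8 had -5.128 (limma adjusted p = 0.00171), Hoxd9 -4.446 (adjusted p = 0.00397) and Hoxc9 -3.615 (adjusted p = 0.00364). Hoxa10 had -2.833, Hoxd1 -2.114, Hoxc6 -1.954 and Hoxd8 -1.601 (limma adjusted p = 0.036, 0.0368, 0.00605 and 0.0275). Hoxc6, Hoxc9 and Hoxd8 were thus called in both clones with opposite signs.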

How the results depend on the processing

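Of the 28 fold changes of Hox genes called in both clones at a stage, 0 changed sign under any alternative. Outside leave-one-out, 259 of 272 stayed on their side of the threshold and 13 did not, and with 1 library left out 129 of 174 stayed and 45 did not. The counts of Hox genes called moved as follows, and the cause was not tested. In naive cells KO4 had 2 with quantile normalization, 2 with scaling by reads of the genes tested and 0 with voom weights, and the count in both clones was 2, 2 and 0. KO8 had 6 with a pseudocount of 4, 1 with a mean of at least 20 and 5 with only 2 groups in the fit, where KO4 against KO8 gave 1. In primed cells, with no filter, KO4 had 1, KO8 0 and both clones 0, and KO4 had 1 with a mean of at least 20. In NPC cultures KO4 had 3 with no filter, 3 with voom weights and 3 with an absolute log2 fold change of at least 1. In CM cultures KO4 had 10 and KO4 against KO8 12 with a mean of at least 20, where fewer genes are tested, and opposite calls were 5 with no filter. The KO4 interaction gave 4 with a pseudocount of 4 and 4 with no filter.

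With each library left out in turn, counts ranged in naive cells from 0 to 1 in KO4, 1 to 5 in KO8, 0 to 1 between clones and 0 to 1 in both clones. In primed cells they ranged from 0 to 2 in KO4 and 0 to 1 in KO8 and in both clones, and were 0 between clones. In NPC cultures the ranges were 1 to 7 in KO4, 1 to 7 in KO8, 0 to 4 between clones and 1 to 6 in both. In CM cultures they were 14 to 18 in KO4, 2 to 15 in KO8, 22 to 24 between clones and 1 to 11 in opposite directions. The interaction ranged from 3 to 8 in KO4 and 4 to 8 in KO8. A group left with 1 library was assumed to vary like the others. No paired analysis was possible because the solved libraries carry no replicate numbers. Scaling by approximate total reads was not run, since these totals follow from the size factors. Scaling by reads of the genes tested and the stricter limit on base means were chosen after seeing the data. Under the latter Hoxa6 and Hoxa2 had no reads per library in NPC cultures. Many members in naive, primed and CM libraries had under 20 reads, which limits the precision of their values.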

Other observations

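Homeobox genes outside the clusters differed between the clones in CM cultures. Emx2, a forebrain and urogenital factor, had 9.32 and 4.93 normalized reads in WT, 904 and 868 in KO4 and 30.04 and 22.5 in KO8. Pax2, a factor of midbrain and kidney, had 9.32 and 17.7, 576 and 580, and 30.04 and 62.5. Both were called up in both clones and stood far higher in KO4 than in KO8. Of the 11 such genes tested, 5 were called up (22.2% of all genes tested) and 0 down (28.4%) in KO4. In KO8, 3 were called up (9.97%) and 1 down (11.1%).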
